A study of Rattus norvegicus with 6 samples.

Results

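The interferon-induced effector genes are the genes that cells switch on when interferon binds its receptors, and whose products act on viral RNA, proteins and membranes. A list of 36 such genes was followed through infarct-border tissue of the rat brain. A member was measured where the platform annotation gave a probe set exactly 1 symbol and that symbol was listed, and each of the 33 members found this way had 1 probe set. Parp12, Parp14 and Xaf1 matched no probe set and are not analysed here. The 33 members belong to 14497 genes with 1 symbol, of which 10947 reached the 40th percentile of an array at least once and were tested. All 33 were among them, 17 through arrays after stroke alone, so that those 17 had to differ from naive tissue to be tested at all. Ifit1, Oas1a, Gbp5, Parp9 and Rsad2 are among these 17. All 17 lay below the 40th percentile on both naive arrays, so the sizes of their changes from naive tissue are uncertain.

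RNA was measured on single-channel Affymetrix rat whole-transcript arrays, 1 for each of 6 groups of male Sprague-Dawley rats. The middle cerebral artery was closed for a limited time with a tungsten hook, and periinfarct tissue was taken 3 d or 14 d later. Naive tissue was healthy brain, for which the labels name no region. In the young groups stroke rats were aged 3 to 4 months and naive rats 3 to 5 months. In the aged groups the ages were 19 to 20 months after stroke and 18 to 20 months without it. Each array held pooled RNA of 19 young or 23 aged stroke rats, or of 15 naive rats, so no group had replicates and differences from rat to rat are not visible. The labels name no sham operation, so infarct, surgery and brain region cannot be told apart in a comparison with naive tissue.

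Interferons of type I signal through the receptor chains IFNAR1 and IFNAR2, and interferon gamma through IFNGR1 and IFNGR2. Janus kinases at these receptors then start a signal that reaches the nucleus. A complex that holds IRF9 binds the interferon-stimulated response element (ISRE), and the gamma-activated site (GAS) is a second element of interferon-induced promoters. In the brain, microglia and invading macrophages are known to respond strongly, and astrocytes, endothelium and neurons can respond too. Arrays of whole tissue cannot tell more cells of one type from more RNA per cell.

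RefSeq promoter windows, which run from 250 bases before to 50 after the gene start in build GRCr8, were found for 23 of the 33 members. The ISRE core was searched as 2 copies of GAAA with 2 bases of any kind between them, and the GAS as TTCNNNGAA, on both strands. An ISRE core lay in 16 of the 23 windows (69.6%), against 3.92% of all 33469 windows, and a GAS in 6 (26.1%) against 8.87%. The windows without the ISRE core were those of Mx1, Oasl, Herc6, Trim25, Ifi47, Parp9 and Ifi35. An ISRE match overlapped a GAS match in the Bst2 window alone. A match describes letters only and says nothing of binding, and no match says only that these letters are not in this window. The 5 windows below are shown because they span the responses described next: Ifit3, Rsad2 and Oas1a rose again between 3 d and 14 d, Gbp2 rose by 3 d, and Oas3 passed no test. They are printed 5′ to 3′ on the gene's strand, with the ISRE core in capitals. Their positions are chr1:241527076-241527375, plus strand (Ifit3), chr6:48788071-48788370, minus strand (Rsad2), chr12:41330216-41330515, plus strand (Oas1a), chr2:234005477-234005776, plus strand (Gbp2) and chr12:41439482-41439781, plus strand (Oas3).
Ifit3: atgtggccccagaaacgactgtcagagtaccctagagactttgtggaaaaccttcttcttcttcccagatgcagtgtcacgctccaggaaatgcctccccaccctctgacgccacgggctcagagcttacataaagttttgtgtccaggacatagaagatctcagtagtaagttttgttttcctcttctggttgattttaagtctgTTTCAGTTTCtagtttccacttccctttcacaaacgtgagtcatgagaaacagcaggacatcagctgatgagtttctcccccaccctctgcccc
Rsad2: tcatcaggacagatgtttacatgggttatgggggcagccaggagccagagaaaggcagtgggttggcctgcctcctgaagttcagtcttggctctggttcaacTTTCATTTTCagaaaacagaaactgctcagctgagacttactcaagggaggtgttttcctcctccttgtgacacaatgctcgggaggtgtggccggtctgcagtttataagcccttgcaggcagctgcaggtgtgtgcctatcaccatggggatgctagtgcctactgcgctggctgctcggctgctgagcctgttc
Oas1a: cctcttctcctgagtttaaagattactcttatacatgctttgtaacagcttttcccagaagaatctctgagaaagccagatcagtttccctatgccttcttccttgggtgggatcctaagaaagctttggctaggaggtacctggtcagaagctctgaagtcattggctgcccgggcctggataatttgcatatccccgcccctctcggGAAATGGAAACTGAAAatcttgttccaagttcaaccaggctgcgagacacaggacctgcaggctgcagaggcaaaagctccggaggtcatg
Gbp2: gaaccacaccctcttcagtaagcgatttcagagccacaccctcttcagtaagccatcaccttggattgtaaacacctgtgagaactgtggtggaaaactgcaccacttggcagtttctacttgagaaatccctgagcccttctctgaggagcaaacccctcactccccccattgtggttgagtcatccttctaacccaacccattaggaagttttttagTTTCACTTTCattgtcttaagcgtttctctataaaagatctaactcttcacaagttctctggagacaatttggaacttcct
Oas3: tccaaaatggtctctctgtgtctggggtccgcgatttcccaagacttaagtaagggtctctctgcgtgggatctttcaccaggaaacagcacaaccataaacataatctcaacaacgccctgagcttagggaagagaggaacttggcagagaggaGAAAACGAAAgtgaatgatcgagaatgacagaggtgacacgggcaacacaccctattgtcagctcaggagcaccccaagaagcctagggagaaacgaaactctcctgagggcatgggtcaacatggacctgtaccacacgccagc
The core began 44 bases before the start in Ifit3, 147 in Rsad2, 31 in Gbp2 and 95 in Oas3. Oas1a held 2 overlapping cores, 41 and 35 bases before the start. In Ifit3, Rsad2 and Gbp2 the core lay on the opposite strand. The pair Oas1a and Oas3 both hold the core, with the values given for their family below.

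The tissue label was checked against brain markers: all 8 neuronal, 5 of 5 measured oligodendrocyte and 5 of 6 astrocyte markers lay above the upper quartile on every array. Of the neuronal markers 1 passed as lower at 3 d and 5 at 14 d. Of the astrocyte markers 2 passed as higher at 3 d and 4 at 14 d, with 1.86 and 1.62 for Gfap, and 3 of 5 endothelial markers passed as higher at each time. All 10 microglia and macrophage markers passed the test as higher at 3 d and at 14 d. The mean log2 level of these 10 was 7.72 and 8.10 on the young and aged naive arrays, 9.79 and 9.82 at 3 d, and 9.70 and 10.3 at 14 d. Of 7 measured T and NK cell markers, 5 lay below the 40th percentile on all arrays (Cd3e, Cd3d, Cd3g, Cd2 and Klrd1), as did 5 of 6 neutrophil markers. The other 2 T and NK cell markers were Cd8a, which passed as higher at 3 d (1.42; adjusted p = 0.0247), and Nkg7, which passed at neither time and stood highest on the aged 14 d array (7.49). The beta-globin genes Hbb and Hbb-b1, the red cell markers kept, passed as lower at both times. The part of these cell types in the results below was not tested. Probe-set values are on the log2 scale, array medians lay between 7.09 and 7.15, and the lower quartiles between 5.57 and 5.75.

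The first question was how far the effector genes differed from naive tissue at each time. At 3 d, 27 of the 33 members were higher and 0 lower, against 14.4% of all tested genes higher and 7.87% lower, and the median log2 change was 0.859 beside -0.034 for all genes. By 14 d, 32 of the 33 were higher and 0 lower, against 13.6% of all tested genes higher and 11.4% lower, with a median of 1.93 beside -0.055. Over all genes the 14 d calls were 1491 higher and 1243 lower, and 1336 and 1686 with array medians centred, where the members still counted 32 and 0. Of the 33 members 17 were tested through arrays after stroke alone, so the direction of their change from naive was partly fixed in advance. How many of all tested genes entered in that way was not counted. The members were also chosen with earlier results of these data known, so the counts and medians describe the list only. Both comparisons share the naive arrays. These calls are from limma, with Benjamini-Hochberg adjustment over all 10947 genes at 0.05, in a model of condition and age over the 6 arrays. The young and aged arrays serve as the repeated measurements there, with a constant difference between the ages removed. The p-values thus rest on how condition changes differ between the ages, which limma moderates with the spread over all genes. Errors are standard errors of log2 changes with 2 arrays per condition. No member was lower at an unadjusted p under 0.05 either (0 of 33 at each time, against 16.8% of all genes at 3 d and 20.0% at 14 d). Among the 13 members at or above the 40th percentile on both naive arrays, 10 were higher at 3 d, 12 at 14 d and 5 at 14 d against 3 d. The shares of all genes that meet the same condition were not counted, so these counts have no background beside them. Both 3 d arrays lay above both naive arrays for 31 of 33 members (33.8% of all genes), and both 14 d arrays for all 33 (28.3%). On single arrays, 14 members stood at least 1 log2 unit above naive at 3 d in young rats (6.94% of all genes) and 13 in aged rats (5.45%). At 14 d these counts were 29 (4.88%) and 28 (7.49%). The 6 members that did not pass at 3 d were Ifit1, Oas2, Oas3, Herc6, Bst2 and Isg20.

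At 3 d the count depended on the naive arrays. Without the aged naive array 15 of the 27 calls were left, and 6.18% of all genes were called higher. The 12 calls lost there had adjusted p from 0.0666 to 0.389: those of Ifit2, Ifit3, Mx2, Oas1b, Oasl, Isg15, Dhx58, Eif2ak2, Igtp, Dtx3l, Rsad2 and Samd9l. Without the young 3 d array or the young naive array 8 calls ended in each case. Of the 27, 14 held under every alternative in which they could be tested: Gbp2, Gbp5, Ifi44, Ifi47, Ifih1, Ifitm1, Ifitm2, Ifitm3, Mx1, Oas1a, Parp9, Rtp4, Trim25 and Usp18. Of the 14 alternatives, 3 leave out arrays of the condition not compared and give the same values, and averaging probe sets leaves the members' levels as they are. At 14 d the count stayed at 31 or 32 whichever array was left out, while 5.76% to 17.7% of all genes were called higher. The call of Isg20 was the one lost, without the aged naive array (adjusted p = 0.0849).

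**Figure D1:**
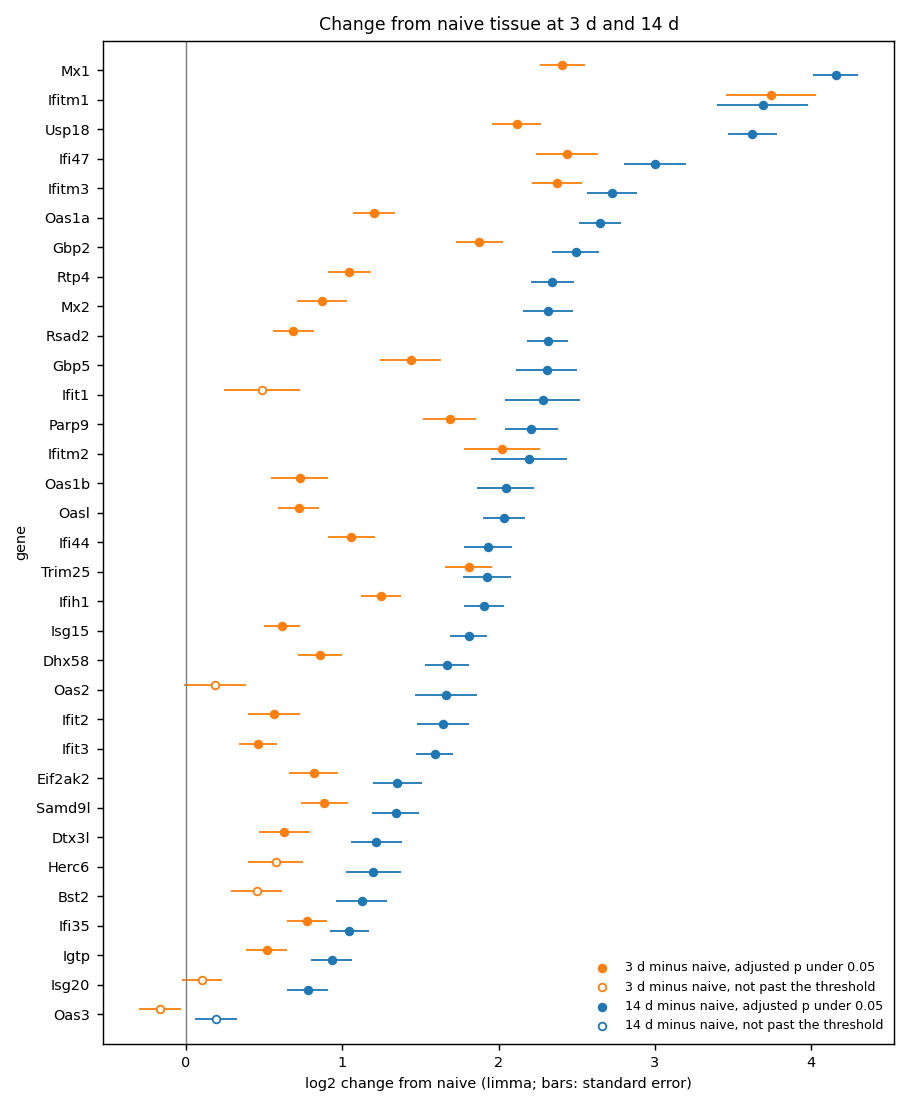
Log2 change from naive tissue at 3 d (orange) and 14 d (blue) for the 33 members, with standard errors from limma; filled points passed an adjusted p of 0.05. Blue points lie right of orange ones for all members but Ifitm1, and Oas3 has open points at both times.

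The IFIT proteins bind viral RNA with foreign 5′ ends. Ifit1 stood at 5.96 and 6.33 on the young and aged naive arrays, 6.65 and 6.61 at 3 d, and 7.87 and 8.98 at 14 d. The 3 d arrays lay just above the naive ones and both 14 d arrays well above all others, the aged one highest. Its change was 0.48 ± 0.24 at 3 d (adjusted p = 0.189) and 2.28 ± 0.24 at 14 d, a rise of 4.86-fold (adjusted p = 0.000746). Ifit3 stood at 6.47 and 6.70 on the young and aged naive arrays, 6.86 and 7.24 at 3 d, and 8.0 and 8.35 at 14 d. It rose by 0.46 ± 0.12 at 3 d and by 1.59 ± 0.12 at 14 d (adjusted p = 0.0316 and 0.000181), and Ifit2 by 0.56 and 1.64 (adjusted p = 0.0478 and 0.000613). The 3 d calls of Ifit2 and Ifit3 ended when any 3 d or naive array was left out.

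Mx proteins are dynamin-like GTPases that block viral replication. Mx1 stood at 5.68 and 5.70 on the young and aged naive arrays, 8.04 and 8.15 at 3 d, and 9.62 and 10.07 at 14 d. The 3 conditions did not overlap, and the ages lay close together at each. Mx1 had the largest 14 d change of all members, 4.16 ± 0.14 (17.8-fold; adjusted p = 5.45e-05), after 2.41 ± 0.14 at 3 d. Its naive values lay near the lower quartile, so the size of the rise is uncertain. Mx2 stood at 7.82 and 7.54 on the young and aged naive arrays, 8.47 and 8.63 at 3 d, and 9.84 and 10.15 at 14 d, again without overlap between conditions. It rose by 0.87 ± 0.16 at 3 d and by 2.32 ± 0.16 at 14 d (adjusted p = 0.00829 and 0.000138).

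The enzymatically active members of the OAS family make 2′-5′ oligoadenylates, which activate the ribonuclease RNase L. Oas1a stood at 6.33 and 6.41 on the young and aged naive arrays, 7.45 and 7.70 at 3 d, and 8.80 and 9.24 at 14 d. Its conditions did not overlap, and it rose by 1.20 ± 0.13 at 3 d and by 2.65 ± 0.13 at 14 d (adjusted p = 0.000895 and 8.05e-05). Oas1b and Oasl rose by 0.73 and 0.72 at 3 d and by 2.04 and 2.03 at 14 d. Oas2 changed by 0.19 at 3 d without passing (adjusted p = 0.52) and rose by 1.67 at 14 d. Oas3 was the member that passed in no comparison: it stood at 6.60 and 6.65 on the young and aged naive arrays, 6.34 and 6.58 at 3 d, and 6.88 and 6.75 at 14 d. Its 3 d arrays lay slightly below the naive ones and its 14 d arrays slightly above them. The change of Oas3 was -0.17 ± 0.13 at 3 d and 0.19 ± 0.13 at 14 d (adjusted p = 0.405 and 0.337). A difference between Oas3 and its relatives was not tested. Near-identical relatives in the Oas, Ifit and Ifitm families may share probes, so single values of these genes are uncertain.

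Isg15 is a ubiquitin-like modifier that is joined to other proteins, Usp18 removes it and also damps the type I receptor, and Herc6 and Trim25 are ubiquitin-type ligases. Usp18 stood at 4.84 and 5.34 on the young and aged naive arrays, 7.09 and 7.32 at 3 d, and 8.31 and 9.12 at 14 d. Its naive values lay below the lower quartile, so that the rises of 2.12 ± 0.16 at 3 d and 3.62 ± 0.16 at 14 d (12.3-fold) are uncertain in size. Isg15 itself rose by 0.61 ± 0.12 at 3 d and by 1.81 ± 0.12 at 14 d (adjusted p = 0.00952 and 0.000132). Trim25 rose by 1.81 ± 0.15 and 1.93 ± 0.15, nearly equal sizes. Herc6 stood at 7.78 and 7.74 on the young and aged naive arrays, 8.14 and 8.53 at 3 d, and 8.61 and 9.31 at 14 d. It changed by 0.57 ± 0.18 at 3 d without passing (adjusted p = 0.0555) and rose by 1.20 ± 0.18 at 14 d (adjusted p = 0.0032).

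Among the sensors of double-stranded RNA, Ifih1 encodes MDA5, Dhx58 encodes LGP2, and Eif2ak2 encodes the kinase PKR, which stops translation. Ifih1 stood at 6.87 and 6.99 on the young and aged naive arrays, 8.18 and 8.17 at 3 d, and 8.69 and 8.98 at 14 d, with no overlap between conditions. It rose by 1.25 ± 0.13 at 3 d and by 1.91 ± 0.13 at 14 d (adjusted p = 0.000638 and 0.000132). Eif2ak2 stood at 7.43 and 7.65 on the young and aged naive arrays, 8.30 and 8.42 at 3 d, and 8.57 and 9.22 at 14 d. It rose by 0.82 ± 0.16 and 1.35 ± 0.16, and Dhx58 by 0.86 and 1.67.

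Ifi47 and Igtp are immunity-related GTPases and Gbp2 and Gbp5 guanylate-binding proteins, families known for their response to interferon gamma and their action on vacuoles that hold microbes. Ifi47 stood at 6.76 and 7.18 on the young and aged naive arrays, 9.43 and 9.38 at 3 d, and 9.55 and 10.39 at 14 d. Its 3 d arrays lay far above the naive ones, and the young 14 d array little above 3 d. It rose by 2.44 ± 0.20 at 3 d and by 3.0 ± 0.20 at 14 d (adjusted p = 0.000237 and 0.000132). Gbp2 rose by 1.88 ± 0.15 and 2.49 ± 0.15, and Gbp5 by 1.44 ± 0.19 and 2.31 ± 0.19. Igtp had the smallest changes of the group and stood at 5.94 and 6.41 on the young and aged naive arrays, 6.62 and 6.76 at 3 d, and 6.93 and 7.28 at 14 d. It rose by 0.52 ± 0.13 and 0.93 ± 0.13 (adjusted p = 0.028 and 0.0025).

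The IFITM proteins hinder fusion of viruses with cell membranes, and Bst2 (tetherin) holds budding virus at the cell surface. Ifitm1 stood at 5.09 and 5.28 on the young and aged naive arrays, 8.95 and 8.90 at 3 d, and 8.22 and 9.53 at 14 d. Its naive values lay under the lower quartile, which leaves the size of its rise uncertain. The 3 d arrays were alike, and at 14 d the young array was lower and the aged array higher than at 3 d. It rose by 3.74 ± 0.29 at 3 d (13.4-fold; adjusted p = 0.000212) and by 3.69 ± 0.29 at 14 d (adjusted p = 0.000198). Ifitm2 rose by 2.02 and 2.20, and Ifitm3 by 2.38 and 2.73. Bst2 stood at 5.53 and 5.86 on the young and aged naive arrays, 6.22 and 6.08 at 3 d, and 6.95 and 6.69 at 14 d. It changed by 0.45 ± 0.16 at 3 d without passing (adjusted p = 0.0864) and rose by 1.12 ± 0.16 at 14 d (adjusted p = 0.00294). Bst2 was below the 40th percentile on all naive and 3 d arrays, so the size of its rise is uncertain too.

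Parp9 and Dtx3l form a complex that modifies proteins with ADP-ribose and ubiquitin. Parp9 stood at 6.32 and 6.48 on the young and aged naive arrays, 7.97 and 8.20 at 3 d, and 8.22 and 9.0 at 14 d, and rose by 1.69 ± 0.17 at 3 d and 2.21 ± 0.17 at 14 d. Dtx3l stood at 6.27 and 6.45 on the young and aged naive arrays, 7.19 and 6.79 at 3 d, and 7.54 and 7.62 at 14 d, and rose by 0.63 ± 0.16 and 1.22 ± 0.16 (adjusted p = 0.0306 and 0.00203). Its aged 3 d array was the lowest of the 4 stroke arrays.

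Of the other effectors, Rsad2 (viperin) makes a chain-terminating nucleotide. It stood at 6.20 and 6.0 on the young and aged naive arrays, 6.72 and 6.85 at 3 d, and 8.43 and 8.39 at 14 d. Its 14 d arrays nearly coincided and lay well above the rest. Rsad2 rose by 0.69 ± 0.13 at 3 d and by 2.31 ± 0.13 at 14 d (adjusted p = 0.00947 and 0.000114). Rtp4, a chaperone of receptor transport, had the largest 14 d change of these, at 5.39 and 5.63 on the young and aged naive arrays, 6.57 and 6.54 at 3 d, and 7.67 and 8.04 at 14 d. It rose by 1.05 ± 0.14 and 2.34 ± 0.14, sizes that are uncertain because its naive values lay below the lower quartile. Isg20, an exonuclease of RNA, had the smallest change and stood at 7.04 and 7.08 on the young and aged naive arrays, 6.99 and 7.34 at 3 d, and 7.76 and 7.91 at 14 d. Its young 3 d array lay below both naive arrays. Isg20 changed by 0.11 ± 0.13 at 3 d (adjusted p = 0.579) and rose by 0.78 ± 0.13 at 14 d. Ifi44, Samd9l and Ifi35 rose by 1.06, 0.89 and 0.77 at 3 d, and by 1.93, 1.34 and 1.05 at 14 d.

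**Figure D2:**
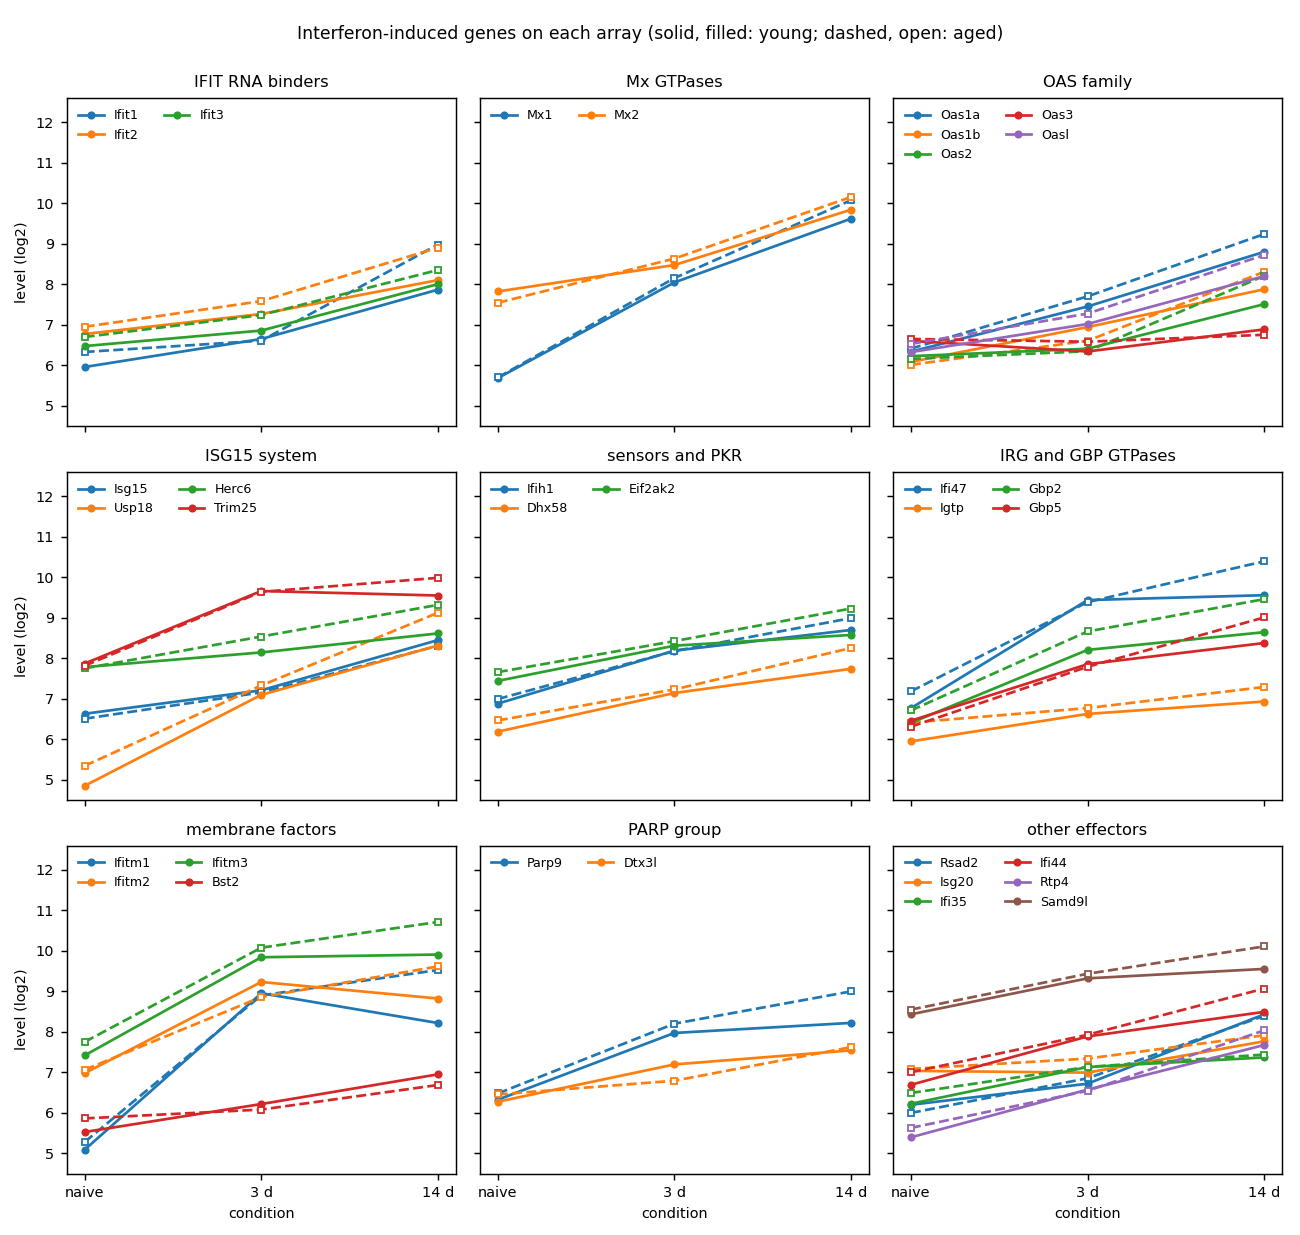
Log2 level of each measured member on each of the 6 arrays, by role; solid lines with filled points are young and dashed lines with open points aged rats, 1 pooled array each, so there are no error bars. Levels are to be compared along a line, not between genes; 28 of the 33 members climb from naive to 3 d to 14 d in both ages.

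The second question was whether the genes went on rising between 3 d and 14 d, a comparison that uses no naive level. Of the 33 members 17 were higher at 14 d than at 3 d and 0 lower, against 1.34% of all tested genes higher and 1.82% lower, with a median of 0.673 beside -0.031. Among the 17, Oas2 lay below the 40th percentile on all naive and 3 d arrays, so it had to be higher at 14 d to be tested at all. Both 14 d arrays lay above both 3 d arrays for 28 members (12.5% of all genes). On single arrays the step was at least 1 log2 unit for 11 members in young (0.438% of all genes) and 17 in aged rats (1.51%). The rising order naive, 3 d, 14 d held for 28 members in young (10.1% of all genes) and 32 in aged rats (25.6%), and in both ages for 28 members (6.71% of all genes). The 5 exceptions were Oas3, Trim25, Ifitm1, Ifitm2 and Isg20. Both steps passed the test for 14 members (0.585% of all genes). Leaving out 1 array gave 13 to 25 members higher, and 0.639% to 3.36% of all genes.

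By role, all 3 IFIT genes and both Mx genes were higher at 14 d than at 3 d, with 1.80 ± 0.24 for Ifit1 (3.47-fold; adjusted p = 0.00799) and 1.75 ± 0.14 for Mx1 (adjusted p = 0.00119). Of 5 OAS genes 4 rose, by 1.31 in Oasl to 1.48 in Oas2, which was tested through its 14 d arrays alone. Usp18 (1.51 ± 0.16) and Isg15 (1.19 ± 0.12) rose among 4 genes of the ISG15 system. The sensors Dhx58 (0.81) and Ifih1 (0.66) rose among 3. Of the other effectors Rsad2 (1.63 ± 0.13; adjusted p = 0.00108), Rtp4 (1.30), Ifi44 (0.87) and Isg20 (0.67) rose. None of the 4 IRG and GBP GTPases, the 4 membrane factors or the 2 measured PARP-group genes passed. Their changes lay between 0.41 and 0.87, between -0.05 and 0.67, and at 0.52 and 0.59. The lowest was Ifitm1, whose sign turned with the array left out. Bst2, at 0.67 ± 0.16 (limma, adjusted p = 0.0922), missed the threshold with a change near that of Ifih1, which passed. The split by role moved with single arrays. Without the young 14 d array the changes were 0.89 for Ifi47, 0.61 for Ifitm3 and 0.82 for Parp9. Without the aged 14 d array they were 0.85 for Bst2, -0.67 for Ifitm1 and -0.29 for Ifitm2. Missing the threshold thus does not show that a group had stopped rising. Whether the role groups differ from each other was not tested. The GTPase values missed the threshold with Gbp5 at 0.87 ± 0.19 (adjusted p = 0.066) and Gbp2 at 0.62 ± 0.15 (adjusted p = 0.0919), and both passed with quantile normalization, with trended and robust variances and without the young 14 d array.

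Of the 17 calls, 12 held under every alternative in which they could be tested: Ifit1, Ifit3, Isg15, Mx1, Mx2, Oas1a, Oas1b, Oas2, Oasl, Rsad2, Rtp4 and Usp18. Those of Ifih1, Dhx58, Isg20 and Ifi44 ended without the aged 3 d array or without either naive array, with adjusted p up to 0.296. Without the young 3 d array those of Ifih1 and Isg20 ended (adjusted p up to 0.312), and a model of condition alone lost Ifit2 as well. In the same comparison 0 of the 10 microglia and macrophage markers passed, against 1.34% of all genes higher and 1.82% lower. With shares that low, 0 of 10 does not show that these markers stayed level. Their changes ran from -0.98 for Cd14 to 0.89 for Adgre1 (limma, adjusted p = 0.157 and 0.0597). Their median was 0.0453 in young and 0.422 in aged rats, against 0.597 and 1.01 for the members. Of the 5 meningeal markers 4 passed as higher, with medians of 1.08 and 1.76, and so did all 5 choroid plexus markers, which had all passed as lower than naive at 3 d. Their part in the change of the effector genes was not tested.

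**Figure D3:**
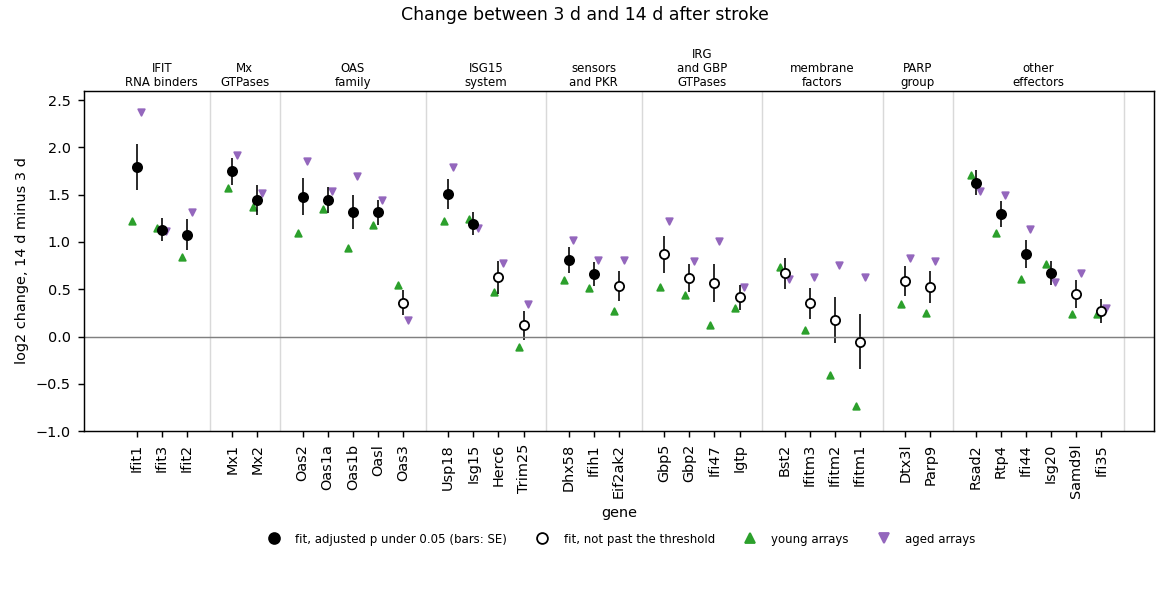
Log2 change from 3 d to 14 d after stroke by role; circles are limma estimates with standard errors (filled where the adjusted p was under 0.05), and triangles the young and aged arrays alone. Filled circles stand in the IFIT, Mx, OAS, ISG15, sensor and other groups, and for Ifitm1, Ifitm2 and Trim25 the young triangle is below 0 and the aged one above it.

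The third question was how the ages compared. Over the 3 matched pairs of arrays 0 of 33 members passed a test of aged against young in either direction, and 0.0% of all genes did. At an unadjusted p under 0.05, 15 members were higher and 0 lower in aged rats, beside 406 and 446 of the 10947 genes. With trended and robust variances 1 gene passed, which was no member. The median difference, aged minus young, was 0.255 (largest for Gbp2, 0.53 ± 0.12).

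Single pairs of arrays show where that difference lay, with no replicate check. On the naive arrays 25 of 33 members were higher in aged rats (48.8% of all genes), with a median of 0.179 and 0 members at or above 0.5 (0.968% of all genes). At 3 d the count was 20 (37.5% of all genes), with a median of 0.107 and again 0 at or above 0.5 (0.959%). At 14 d it was 29 (52.1% of all genes), with a median of 0.514, and 17 members were at or above 0.5, against 8.32% of all genes. The 4 exceptions at 14 d were Oas3, Isg15, Bst2 and Rsad2. Ifitm1 (1.31) and Ifit1 (1.11) had the largest differences at 14 d, followed by Ifi47 (0.84) and Gbp2 (0.82). The median of the 10 microglia and macrophage markers, aged minus young, was 0.365 on the naive arrays, 0.0803 at 3 d and 0.481 at 14 d. Its part in the difference was not tested.

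The age difference at 14 d was then set against that of the other 2 conditions. Limma's error for it combines the difference between those 2, with 1 residual degree of freedom, and the spread over all genes. Ifitm1 was the 1 member to pass, at 1.24 ± 0.21 (limma, adjusted p = 0.0347), against 0.375% of all genes with a positive and 0.0183% with a negative term. The call ended with quantile normalization (adjusted p = 0.137), with array medians centred (0.0927) and without the filter (0.0733). At an unadjusted p under 0.05, 13 of 33 members met that limit, beside 13.4% of all genes. In the same test at 3 d and on the naive arrays 0 members passed, beside 0.00913% of all genes at 3 d and 0.0% on the naive arrays, with 3 and 0 at an unadjusted p under 0.05 (2.93% and 2.54% of all genes). The 14 d term of Ifit1 was 0.95 ± 0.23 (adjusted p = 0.0992).

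**Figure D4:**
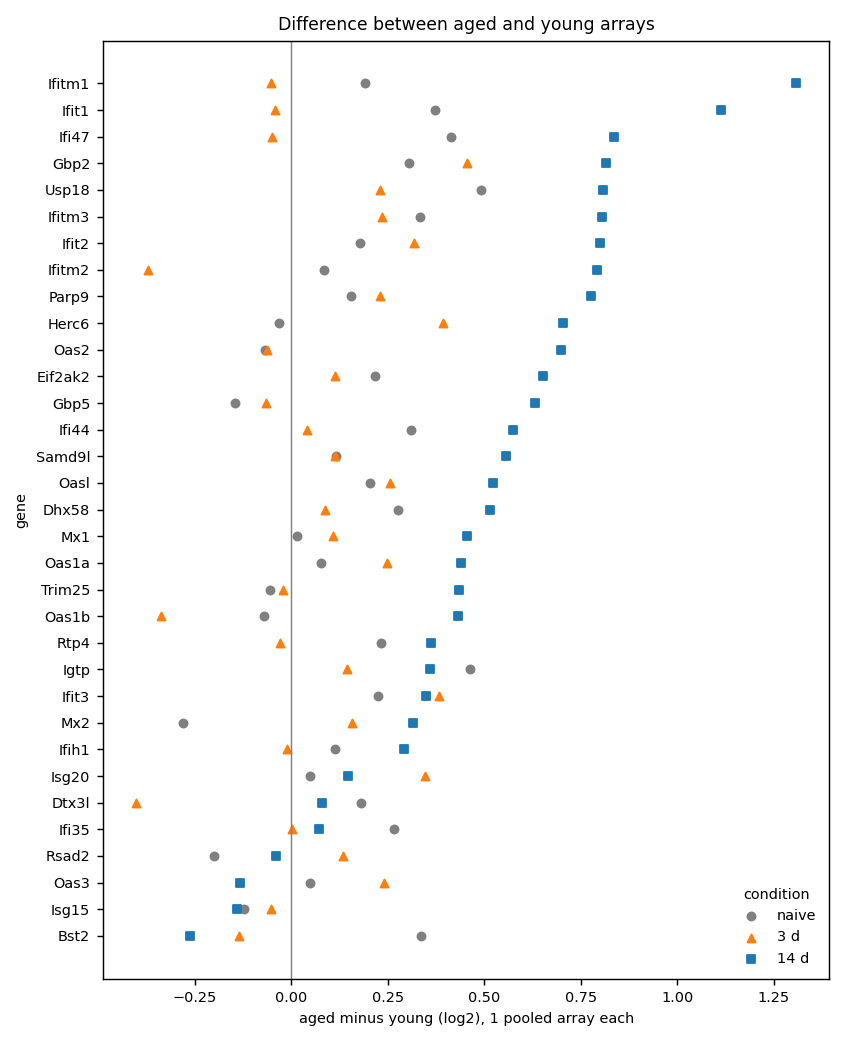
Aged minus young log2 difference of each member on the naive (grey circles), 3 d (orange triangles) and 14 d (blue squares) arrays, 1 pooled array per point and so no error. The blue squares lie right of 0 for 29 of 33 members and reach 1.31 in Ifitm1; at naive and 3 d no point reaches 0.5.

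Other genes of the pathway came from a list of 46 symbols, of which 30 were measured and 27 tested. Of the measured interferons Ifnb1, Ifnk and Ifng lay below the 40th percentile on all arrays and were not tested: Ifnb1 ranged from 5.26 to 5.64 and Ifng from 5.47 to 5.72. The highest array of Ifng was the young 14 d one. Ifnk ranged from 5.27 to 5.48. Ifna5 lay between 6.52 and 7.10, above the 40th percentile of every array. Ifna4 and Ifna5 changed by -0.48 ± 0.16 and -0.33 ± 0.19 at 3 d and by -0.31 ± 0.16 and -0.16 ± 0.19 at 14 d, none past the threshold. Values of whole tissue cannot show whether a few cells made interferon.

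Of the receptor chains, Ifnar1 changed by 0.35 ± 0.13 at 3 d and 0.26 ± 0.13 at 14 d without passing. Ifngr1 rose by 1.47 ± 0.15 and 1.55 ± 0.15, Ifngr2 by 0.91 ± 0.14 and 0.89 ± 0.14, and Il10rb, a chain of the interferon lambda and IL-10 receptors, by 1.62 ± 0.18 and 1.79 ± 0.18. Over the whole list 19 of 27 tested genes were higher at 3 d and 19 at 14 d, against 14.4% and 13.6% of all genes, and 0 lower at either, against 7.87% and 11.4%. Besides Il10rb and Ifngr1, the largest rises at 3 d were those of the RNA receptor Tlr7 (2.12), the transcription factor Irf8 (2.11) and the signalling inhibitor Socs3 (1.49). At 14 d they were Irf8 (2.57), Tlr7 (2.51), Irf7 (2.50), the nucleic acid sensor Zbp1 (2.12) and Irf9 (1.95), part of the complex that binds the ISRE. From 3 d to 14 d, 3 of the 27 rose and 1 fell, against 1.34% and 1.82% of all genes. Irf7, a factor that drives interferon genes and is itself induced by interferon, stood at 6.56 and 6.90 on the young and aged naive arrays, 7.29 and 7.44 at 3 d, and 9.12 and 9.35 at 14 d, and rose by 1.87 ± 0.12 (adjusted p = 0.0006). Tlr9, a DNA receptor, rose by 0.89 and Uba7, which activates ISG15, by 0.67 (adjusted p = 0.0479 and 0.0468). Socs3 fell by 0.95 ± 0.14 (adjusted p = 0.011).

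**Figure D5:**
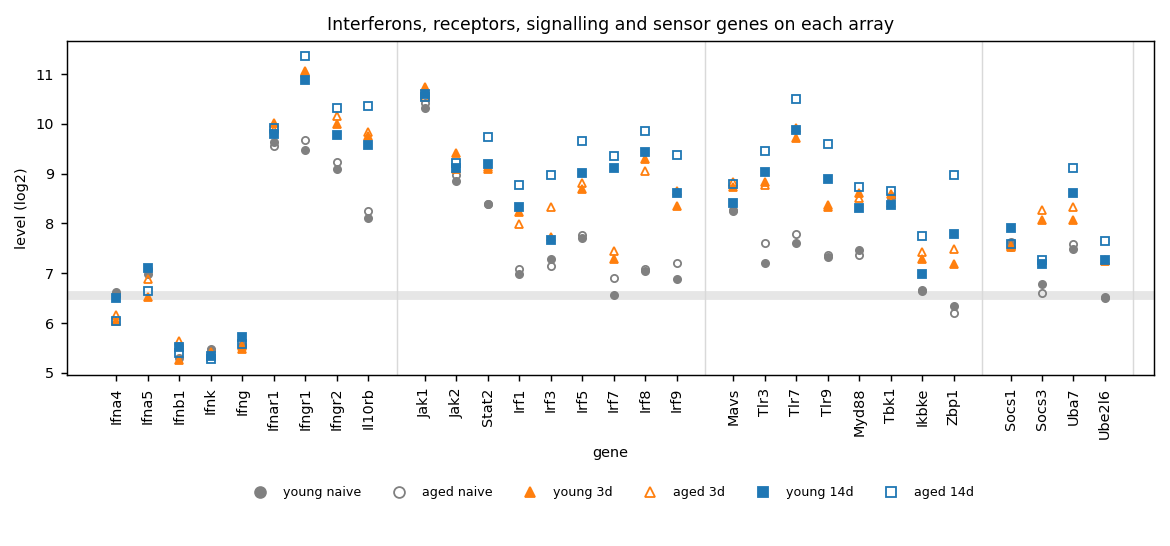
Log2 level of the 30 measured genes of the interferon pathway on each array, grouped as interferons and receptors, kinases and transcription factors, sensors and adaptors, and feedback and conjugation; filled marks are young and open marks aged, and the grey band spans the 40th percentiles of the arrays. Ifnb1, Ifnk and Ifng lie below the band on every array, and both 14 d squares of Irf7 lie above its 3 d triangles.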

How the data were processed

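The values the authors deposited, 1 for each of 28826 probe sets on an array, were read as log2. That base was inferred from their range (1.82 to 13.7), and every fold rests on it. The submitters' processing notes name R 2.14.0 and affy. How background, summarisation and normalization were handled, and the build, is not given in the sources used here. Because the arrays were on 1 common scale, a shift of total RNA would not show, and arrays tend to compress large folds. A gene with several probe sets took the one of highest mean. Limma 3.58.1 in R 4.3.3 fitted condition and age over the 6 arrays (2 residual and 5.56 prior degrees of freedom). The fit was also run on simulated arrays with independent noise and added changes of the form it models. That run cannot show how the fit performs on pools without replicates. The number of arrays limits the precision, and no batch was given, so batch and group cannot be told apart. The members and lists were chosen with earlier results of these data known. Every member was accounted for. By role, the members with the largest and smallest 14 d change have each array's value. Rsad2 was added after its values were seen. Pathway genes named are the receptors, the interferons and the 5 largest called changes per comparison. Alternatives were other scalings, filters, variances, probe-set rules and models, and arrays left out.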

Additional observations from a re-analysis of the deposited data

Results flagged for a closer look

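The age difference of Ifitm1 at 14 d exceeded that of the other 2 conditions by 1.24 on the log2 scale, by the limma test of that difference (adjusted p = 0.0347), between single pooled arrays. The adjusted p was 0.137 with quantile normalization, 0.0927 with array medians centred and 0.0733 with no filter. From 3 d to 14 d Ifitm1 changed by -0.74 on the young and 0.63 on the aged arrays, 1.36 apart. Ifitm2 changed by -0.41 and 0.76, 1.16 apart, and Trim25 by -0.11 and 0.35, 0.46 apart. From naive to 3 d, Isg20 differed by -0.04 on the young arrays and by 0.25 on the aged ones, 0.30 apart. These last 4 differences, of opposite sign in single pooled arrays, were not tested.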

How the results depend on the processing

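Of the 33 members 26 to 30 were called higher at 3 d under the alternatives that changed scaling, filter, variances, probe-set rule or arrays compared. The exceptions were 25 of the 28 members left by the filter at the 60th percentile, and 24 with age left out of the model. Over all genes these settings called 9.97% to 19.5% higher, and the 30 came with the 19.5%. At 14 d all such settings gave 32, or 28 of 28 with that filter, against 9.4% to 16.5% of all genes. From 3 d to 14 d they gave 12 to 20, against 0.776% to 1.99% of all genes. The median change at 3 d was 0.859, and 0.795 with quantile normalization, 0.818 with array medians centred and 0.966 with the filter at the 60th percentile. Leaving out 1 array in turn gave medians from 0.775 to 0.986 and counts from 15 to 30 at 3 d. From 3 d to 14 d it gave 13 to 25 higher and 0 to 1 lower, the latter being Ifitm1 without the aged 14 d array (-0.67). Where a condition is left with 1 array, that array is assumed to vary like the others. Signs turned at 3 d for Oas2 (-0.0019 without the young 3 d and -0.0060 without the aged naive array; range to 0.38) and for Isg20 (-0.019 without the aged 3 d array; range to 0.23). From 3 d to 14 d they turned for Ifitm1 (0.35 without the young 3 d and 0.57 without the young 14 d array), for Ifitm2 (-0.23 without the aged 3 d and -0.29 without the aged 14 d array; range to 0.64) and for Trim25 (-0.12 without the aged 14 d array; range to 0.35). The cause was not tested. The number of members past the test of the age difference at 14 d went from 1 to 0 with quantile normalization, with array medians centred and with no filter, alternatives chosen after seeing the data. That test could not be fitted with an array left out. No paired analysis was possible because each group holds replicate number 1 alone, so numbers match no arrays beyond the model's own age term, which already matches arrays by age.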
